A study of Mus musculus with 6 samples.

Results

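Endothelial nuclei were chosen from single-nucleus RNA profiles of mouse hippocampi, a tissue that the labels also mark DG. A nucleus counted as endothelial with at least 3 unique molecular identifiers (UMIs, 1 per captured RNA molecule) from at least 2 of Flt1, Cldn5, Pecam1, Tek and Adgrl4. It also had to hold at most 2 UMIs of the neuronal genes Slc17a7, Snap25, Gad1 and Gad2, at most 1 of the microglial genes Csf1r and Inpp5d, and at most 1 of the myelin genes Mog, Mag and Mobp. This gave 67 nuclei of 27766 kept, or 0.241%, with 122234 UMIs in all.

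The drug was CI-994, which blocks class I histone deacetylases and is called HDACi here as in the labels, and the study asked how transcription in hippocampal cell types differed after learning. The groups were HDACi-CFC (2 libraries), HDACi-Context (1 library), Veh-CFC (2 libraries) and Veh-Context (1 library), each library made from the pooled hippocampi of 5 male C57BL/6J mice aged 12 weeks. HDACi mice were injected with 30 mg/kg CI-994 and Veh mice with the solvent (dimethyl sulfoxide, Kolliphor and saline), 1 h before the exposure, and tissue was taken 1 h after the exposure. CFC stands for contextual fear conditioning, in which mice received 2 foot shocks of 0.2 mA in a new chamber, and the Context mice spent the same time there unshocked. The labels of the Veh-Context library conflict, with vehicle in its title and treatment field and HDACi in its description, and it was used as Veh-Context. Nuclei were prepared in actinomycin D, a blocker of transcription. Only nuclear RNA was measured, so messages that had left the nucleus were not counted.

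Brain endothelial cells line the vessels and form the blood-brain barrier. Tight junctions close the gaps between the cells, few caveolae form, carriers of the solute carrier (Slc and Slco) families move nutrients and hormones across, and ATP-driven ABC pumps return drugs and other foreign molecules to the blood. Wnt signals from the surrounding tissue induce and keep this program. The gene that gives the tight junction its main barrier-closing claudin is Cldn5 (mm10, chr16:18776847-18778262), and Flt1 (chr5:147561604-147726011) codes for a receptor of the vascular growth factor VEGF. Adgrl4 (chr3:151437887-151545086) is an adhesion G protein-coupled receptor of endothelium, Tek the angiopoietin receptor Tie2, and Pecam1 an adhesion molecule of the cell contacts.

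The sequence in front of a rule gene is shown for 3 of them, since these transcripts chose the nuclei. ETS family factors are known regulators of endothelial genes, and their core motif was searched as CNGGAAG on both strands, with no overlap with another motif searched. The 250 bases before the start are taken from the RefSeq promoter table for GRCm38.p6, the assembly of mm10, read 5′ to 3′ on the strand of the gene, with matches in capitals.
Flt1 (chr5:147726012-147726261, minus strand): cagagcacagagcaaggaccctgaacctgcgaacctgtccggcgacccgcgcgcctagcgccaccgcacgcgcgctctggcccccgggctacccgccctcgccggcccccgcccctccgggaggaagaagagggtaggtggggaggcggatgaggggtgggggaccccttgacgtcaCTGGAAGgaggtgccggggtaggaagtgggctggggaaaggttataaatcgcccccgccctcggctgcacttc
Adgrl4 (chr3:151437632-151437881, plus strand): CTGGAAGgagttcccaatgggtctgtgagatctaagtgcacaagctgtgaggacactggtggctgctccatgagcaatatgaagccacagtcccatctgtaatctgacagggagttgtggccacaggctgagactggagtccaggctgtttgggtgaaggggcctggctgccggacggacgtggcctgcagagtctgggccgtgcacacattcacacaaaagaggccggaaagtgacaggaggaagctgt
Cldn5 (chr16:18776597-18776846, plus strand): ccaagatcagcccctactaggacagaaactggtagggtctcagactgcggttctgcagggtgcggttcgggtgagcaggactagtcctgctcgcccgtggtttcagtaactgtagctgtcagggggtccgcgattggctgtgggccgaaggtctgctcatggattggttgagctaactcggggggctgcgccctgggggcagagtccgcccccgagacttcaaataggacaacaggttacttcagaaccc
Flt1 and Adgrl4 held 1 match each and Cldn5 held none. The table held 17 of the 29 genes of the endothelial identity list, and 8 of these 17 (47.1%) had a match, as did 7882 of all 27025 genes with a promoter there (29.2%). For other lists the share was 8 of 21 uptake carriers (38.1%), 3 of 7 efflux pumps (42.9%) and 4 of 15 junction genes (26.7%). Tek, the only other rule gene in that table, held 0 matches. No share was tested. A match is a run of letters and no measurement of binding.

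The endothelial nuclei were small in RNA. Their median was 1344 UMIs and 910 genes, against 6423 UMIs in all other kept nuclei, and single nuclei ranged from 587 to 10967 UMIs. The 5 rule genes together gave 3 to 116 UMIs per nucleus (median 11), and 14 nuclei held UMIs of all 5 of them. At the threshold, 9 members had exactly 3 rule UMIs and 1596 CPM (UMIs of a gene or list per 1000000 UMIs of the nuclei summed) of the 29 endothelial identity genes as a sum. The 23 nuclei just outside, with 2 UMIs from 2 genes and the same limits on other cells, had 252.5 CPM. The median over the 9 single members was 799 CPM. In all but 2 of the 9, the mural, astrocyte or fibroblast list described below had at least as many UMIs as the rule genes. Those 2 had 0 UMIs of the identity genes. Another 375 nuclei met the endothelial count and were left out by the limits, 368 of them by the neuronal one, and their median was 11863 UMIs. None of the 67 had a barcode found in another library, although 86 barcodes occurred in more than 1 library, and Scrublet marked none of them as doublets, against 3.34% of kept nuclei.

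Not every member was led by endothelial RNA. In 11 of the 67 nuclei the UMIs of the mural list (pericytes and smooth muscle, 12 genes), the astrocyte list (10 genes) or the fibroblast list (8 genes) were at least as many as the rule UMIs. The mural list reached that level in 8 nuclei, the astrocyte list in 8 and the fibroblast list in 3. These 11 nuclei held 27.2% of all member UMIs, and 6 of them came from HDACi-CFC 2. No mural UMI was found in 46 of the 67 nuclei. Outside these 3 lists, the neuron list (12 genes) reached the rule UMIs in 18 nuclei, the list of oligodendrocyte precursors (OPC) in 5 and the oligodendrocyte list in 3. The blood list (5 genes) did so in 4 nuclei. In the HDACi-Context library 1 nucleus of 10967 UMIs gave 54.5% of the library's endothelial UMIs. It held 66 mural and 960 blood UMIs and is not among the 11. Counts of called genes below are given with and without these nuclei or a library where the count changes.

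**Figure D1:**
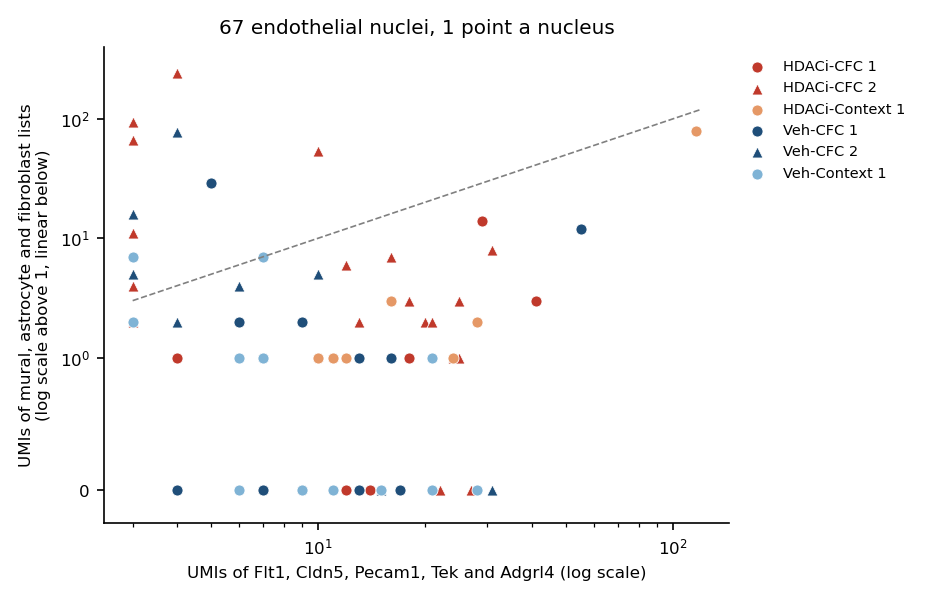
Each point is 1 of the 67 endothelial nuclei, with its UMIs of the 5 rule genes (x axis, log scale) and its UMIs of the mural, astrocyte and fibroblast lists together (y axis, log scale above 1). Colours and shapes mark the library, and the dashed line marks equal numbers. Most nuclei lie below the line, several HDACi-CFC 2 nuclei lie far above it, and the HDACi-Context nucleus with 116 rule UMIs stands alone at the right.

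The markers bear the label out. The endothelial identity list holds 29 endothelial genes, none of them counted by the rule, and all 29 were detected. Together they stood at 22301 CPM in the endothelial nuclei and 130.5 CPM in all other kept nuclei. Among the others, 213 nuclei had at least 3 UMIs from at least 2 genes of the mural list under the same limits. These are called mural nuclei, and there the identity list stood at 974.7 CPM. They were mixed, with the astrocyte list at 16880 CPM, the mural list at 4646 CPM and the OPC list at 4627 CPM. In 64 of the 67 endothelial nuclei at least 1 identity gene had a UMI. Because the nuclei were chosen by endothelial genes, these levels describe the selection and were not tested. The neuron list of 12 genes stood at 4982 CPM in the endothelial nuclei, against 30761 CPM in all other nuclei, the microglia list at 466.3 against 410.8 CPM with Tmem119 at 0, and the oligodendrocyte list at 973.5 against 1194 CPM. The astrocyte list stood at 4156 against 1576 CPM, and the mural list at 1979.8 against 63.0 CPM.

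**Figure D2:**
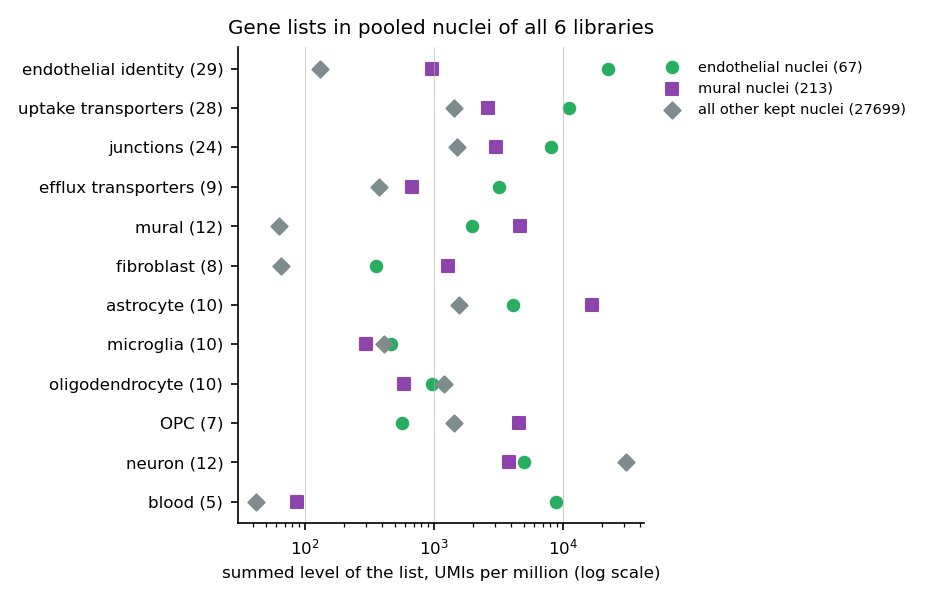
Points give the summed level of each gene list (number of genes in brackets) in CPM on a log scale, pooled over all 6 libraries. They cover the 67 endothelial nuclei, the 27699 other kept nuclei and, among these, 213 mural nuclei, whose astrocyte list stood above their mural list. Endothelial identity, at 22301 against 130.5 CPM, lies farthest apart between endothelial and other nuclei among the non-blood lists, while microglia and oligodendrocyte lists lie close together.

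Genes that the rule did not name followed the same pattern. Among 623 genes with at least 20 UMIs in at least 20 endothelial nuclei, 144 stood over 10 times as high as in all other nuclei and 45 over 100 times. Slco1a4, a carrier of organic anions such as bile salts and steroid conjugates, led them at 2422 CPM against 2.19 CPM. It had a UMI in 76.1% of the endothelial nuclei and 0.87% of all other nuclei, although the other nuclei were sequenced to several times the UMIs. The transcription factor gene Mecom followed this, with a UMI in 74.6% of the endothelial nuclei and 2.34% of all other nuclei. Others at the top were Sox17, a Wnt-linked endothelial transcription factor, Tie1, the partner receptor of Tek, and Abcb1a, the gene of the drug pump P-glycoprotein. Abcb1a had a UMI in 58.2% of the endothelial nuclei and 1.32% of all other nuclei. Hemoglobin Hbb-bs also ranked among them, but 91.5% of its 946 UMIs came from 1 nucleus of the HDACi-Context library.

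The share of endothelial nuclei was low in every library. In HDACi-CFC it was 0.214% (8 nuclei, exact binomial 95% interval 0.0923 to 0.421%) and 0.373% (19 nuclei, 0.225 to 0.581%). In Veh-CFC it was 0.342% (13 nuclei, 0.182 to 0.585%) and 0.172% (8 nuclei, 0.0742 to 0.338%). The 2 groups overlapped, with means of 0.293 ± 0.112% in HDACi-CFC and 0.257 ± 0.121% in Veh-CFC (SD, n = 2 libraries each). The Context libraries held 0.128% with HDACi (7 nuclei, 0.0514 to 0.263%) and 0.24% with vehicle (12 nuclei, 0.124 to 0.419%). No test was made on shares. The smallest two-sided p of an exact permutation test of 2 libraries against 2 is 0.333. The binomial intervals cover counting error only.

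The uptake carriers of the barrier were well detected, with 27 of 28 listed genes seen in endothelial nuclei. Slc2a1 (GLUT1, which brings glucose into the brain) had 4559.7 and 2647 CPM in the HDACi-CFC libraries, against 3713 and 2278 CPM in the Veh-CFC libraries, and 3379 CPM in the HDACi-Context library, against 1262 CPM in the Veh-Context library. Slco1a4 had 3844 and 1643 CPM in the HDACi-CFC libraries, against 2910.5 and 1993 CPM in the Veh-CFC libraries, and 3081 CPM in the HDACi-Context library, against 2404 CPM in the Veh-Context library. Neither gene separated the HDACi-CFC from the Veh-CFC libraries, and in both groups replicate 1 was the higher. Slco1c1, the thyroid hormone carrier, had 1162 and 570.5 CPM in the HDACi-CFC libraries, against 602 and 664 CPM in the Veh-CFC libraries, and 696 CPM in the HDACi-Context library, against 1022 CPM in the Veh-Context library. Slc7a5, which carries large neutral amino acids, had 715 and 388 CPM in the HDACi-CFC libraries, against 1706 and 475 CPM in the Veh-CFC libraries, and 845 CPM in the HDACi-Context library, against 481 CPM in the Veh-Context library. Its highest library was Veh-CFC 1, and Veh-CFC 2 lay between the HDACi-CFC libraries. Slc6a6, the taurine carrier, had 2414 and 319 CPM in HDACi-CFC and 1004 and 664 CPM in Veh-CFC.

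The drug pumps showed the same spread. Abcb1a had 1609 and 502 CPM in the HDACi-CFC libraries, against 1355 and 569 CPM in the Veh-CFC libraries, and 1143 CPM in the HDACi-Context library, against 541 CPM in the Veh-Context library. Abcg2, the gene of the pump Bcrp, had 2056 and 685 CPM in the HDACi-CFC libraries, against 903 and 1329 CPM in the Veh-CFC libraries, and 1441 CPM in the HDACi-Context library, against 842 CPM in the Veh-Context library. Abcc4, which exports organic anions and nucleotides, had 2772 and 548 CPM in the HDACi-CFC libraries, against 1656 and 664 CPM in the Veh-CFC libraries, and 398 CPM in the HDACi-Context library, against 421 CPM in the Veh-Context library. HDACi-CFC 1 was the highest library for each of these 3 genes and the groups overlapped for each. All 9 listed pumps were detected, and together they gave 6974 and 2168 CPM in HDACi-CFC and 4366 and 3037 CPM in Veh-CFC.

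For the junctions, 19 of 24 listed genes were detected, 4 were at 0 (Cldn12, Marveld3, Cgn and Ctnnd1) and Cldn25 was not analysed here. Cldn5 had 3039.8 and 1483 CPM in the HDACi-CFC libraries, against 2057 and 1613 CPM in the Veh-CFC libraries, and 3329.5 CPM in the HDACi-Context library, against 1022 CPM in the Veh-Context library. Tjp1, the gene of the scaffold ZO-1, had 2235 and 1894 CPM in the HDACi-CFC libraries, against 1907 and 1898 CPM in the Veh-CFC libraries, and 2833 CPM in the HDACi-Context library, against 962 CPM in the Veh-Context library. In the Context pair both lay higher with HDACi, and in CFC the groups overlapped for both. Ocln, the gene of occludin, gave 40 UMIs in all, 7 and 9 in HDACi-CFC, 10 and 4 in Veh-CFC, 9 in HDACi-Context and 1 in Veh-Context. Cdh5, the gene of VE-cadherin, gave only 5 and 9 UMIs in HDACi-CFC and 3 and 1 in Veh-CFC. Both were too sparse for the test.

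Of the 19 listed genes of caveolae and transcytosis, receptor-mediated and lipid transport, Igf1r, the receptor of insulin-like growth factor, was the best covered with 283 UMIs. Pltp, a phospholipid transfer protein, had 129 and the insulin receptor gene Insr 86, and the rest had 48 or fewer each. Igf1r had 3844 and 2099 CPM in the HDACi-CFC libraries, against 2759.9 and 1613 CPM in the Veh-CFC libraries, and 1590.2 CPM in the HDACi-Context library, against 2645 CPM in the Veh-Context library. Tfrc, the transferrin receptor, gave 8 UMIs in each HDACi-CFC library, 7 and 4 in Veh-CFC, 11 in HDACi-Context and 9 in Veh-Context. Mfsd2a, the lipid carrier known for keeping caveolar transport low at the barrier, gave 18 UMIs in 12 nuclei. It had 1 and 2 UMIs in HDACi-CFC and 5 and 3 in Veh-CFC, 2 in HDACi-Context and 5 in Veh-Context. Pooled over the CFC libraries its level with HDACi was 0.21 (95% counting interval 0.04 to 0.87) times that with vehicle, and 0.26 (95% counting interval 0.03 to 1.47) times without the 11 nuclei led by other cells. Counting intervals leave out the spread between libraries, and Mfsd2a had too few UMIs for the test.

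**Figure D3:**
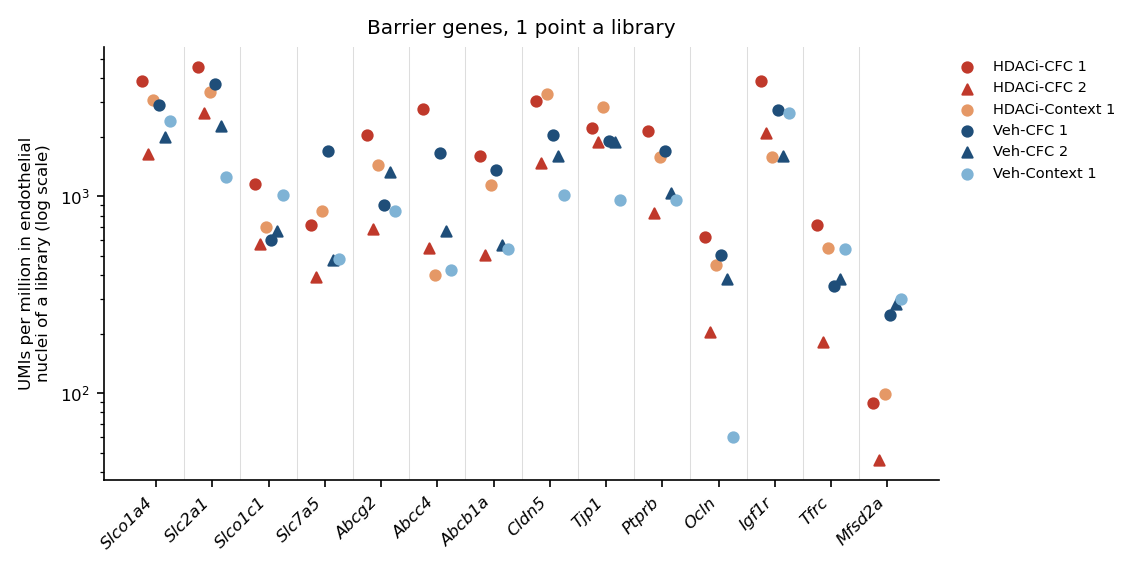
Points are the level of 14 barrier genes in the endothelial nuclei of each library, in CPM on a log scale, with HDACi libraries (red and orange) left of vehicle libraries (blue). The colours overlap for most genes, HDACi-CFC 1 is often the highest point, and Mfsd2a, with 18 UMIs in all, has its 3 HDACi points below its 3 vehicle points.

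No gene passed the test of HDACi-CFC against Veh-CFC in endothelial nuclei. Of 187 genes with enough UMIs, 0 (0%) were called at an adjusted p below 0.05 by edgeR's quasi-likelihood test with Benjamini-Hochberg adjustment, 14 had an unadjusted p below 0.05, and DESeq2 called 0, with 9 below 0.05 unadjusted. The median log2 fold change over the 187 was 0.07. The 95% interval of a gene reached a median of 1.34 to either side on the log2 scale, and for none of the 187 did it lie wholly between -1 and 1. Without HDACi-CFC 1, which leaves 1 library in that group, 14 genes were called, and without Veh-CFC 2 Trpm3, a cation channel gene, was called. Without HDACi-CFC 2, which held 6 of the 11 nuclei led by other cells, 0 were called. A missed call does not show that a gene was unchanged. Signs of single uncalled genes turned with the library left out. Pecam1, at 0.15 with all 4 libraries, ran from -0.48 without Veh-CFC 2 to 1.08 without Veh-CFC 1, and Abcb1a, at -0.13, ran from -0.87 without HDACi-CFC 1 to 0.37 without Veh-CFC 1.

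The uptake carriers gave 6 tested genes, 0 of them called, with a median log2 fold change of 0.07. Slc2a1 stood at 0.15 (95% interval -0.99 to 1.30, adjusted p = 0.98), Slco1a4 at -0.01 (95% interval -1.18 to 1.16) and Slco1c1 at 0.30 (95% interval -0.96 to 1.55). Slc7a5 had the lowest value, -1.15 (SE 0.64, unadjusted p = 0.079, adjusted p = 0.67). The 3 tested pumps, 0 called, had a median of 0.07, from -0.13 for Abcb1a to 0.21 for Abcc4. The 4 tested junction genes, 0 called, had a median of -0.10. They were Tjp1 at 0.07 (95% interval -1.16 to 1.29), Ptprm at -0.42 (95% interval -1.85 to 1.00), Ptprb, the endothelial phosphatase that acts on Tek, at -0.09 (95% interval -1.43 to 1.25), and Esam, a junctional adhesion molecule, at -0.11. Igf1r stood at 0.31 (95% interval -0.86 to 1.49) and Pltp at 0.35.

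Among the rule genes Adgrl4 had 2414 and 1917 CPM in HDACi-CFC and 1305 and 569 CPM in Veh-CFC, a log2 fold change of 1.13 (SE 0.66, unadjusted p = 0.095, adjusted p = 0.71). Cldn5 stood at 0.15 (95% interval -1.08 to 1.38), Pecam1 at 0.15 (95% interval -1.16 to 1.47) and Flt1 at -0.41 (95% interval -1.56 to 0.73). These genes chose the nuclei, so their differences are not independent of the selection. With the rule run without Flt1, from at least 2 UMIs of at least 2 of the other 4 genes, 0 of 380 genes were called, and Flt1 stood at 0.14 in place of -0.41. Of the Wnt list, 2 of 23 genes were tested and 0 called, Lef1, a Wnt effector that keeps barrier genes on, at 0.32 (95% interval -0.92 to 1.55) and Sox17 at -0.56. Of the endothelial transcription factors 9 were tested and 0 called, with a median of 0.32, among them Mecom at -0.15 (95% interval -1.32 to 1.02) and the flow-responsive factor gene Klf2 at 0.52 (95% interval -0.89 to 1.93).

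**Figure D4:**
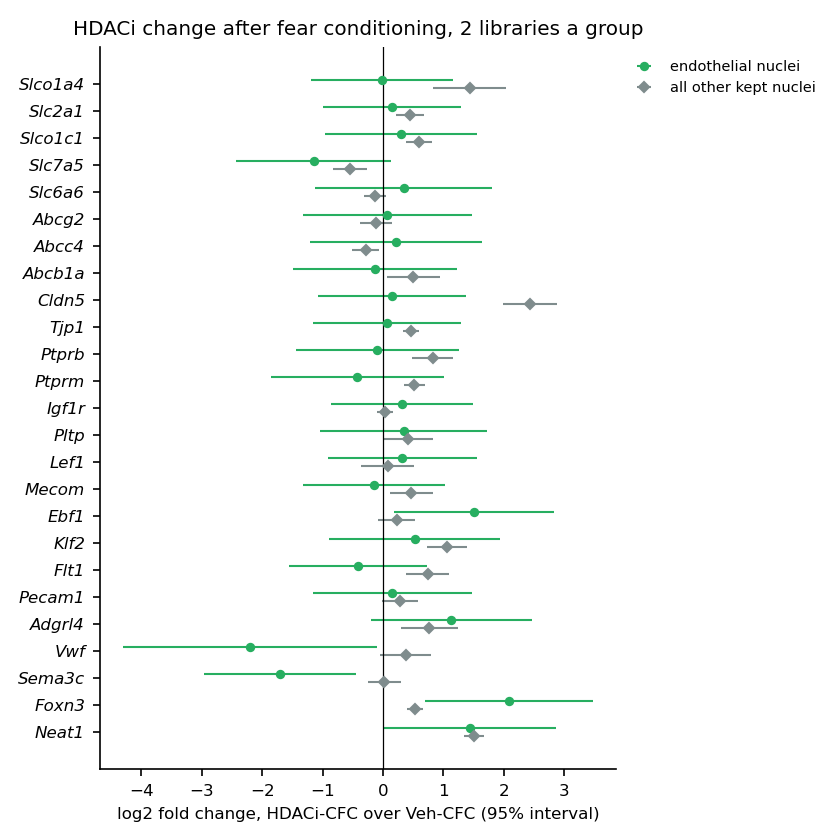
Points are log2 fold changes of HDACi-CFC over Veh-CFC (2 libraries each) with 95% intervals from edgeR, for 25 genes in the endothelial nuclei (green) and in all other kept nuclei (grey). Green intervals are several times as wide as grey ones and nearly all include 0, and for Slco1a4 the grey point at 1.43 lies right of the green interval, which ends at 1.16.

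The genes with the lowest unadjusted p in endothelial nuclei were named after their values were seen, and none passed adjustment. In TMM-scaled levels the HDACi-CFC and Veh-CFC libraries did not overlap, in either direction, for 64 of all 187 genes tested (34.2%). Sema3c, a secreted semaphorin, had 536 and 274 CPM in the HDACi-CFC libraries, against 1154 and 1234 CPM in the Veh-CFC libraries, and 298 CPM in the HDACi-Context library, against 1082 CPM in the Veh-Context library. All 3 HDACi libraries lay below all 3 vehicle libraries, for a gene named after its values were seen. The share of all genes tested that were apart over all libraries in this way is not given here. In CFC the log2 fold change of Sema3c by edgeR was -1.71 (SE 0.62, unadjusted p = 0.0091, adjusted p = 0.53). Over both exposures it was -1.80 (95% interval -3.02 to -0.59, adjusted p = 0.99). Without the 11 nuclei led by other cells, its pooled CFC ratio was 0.42 (95% counting interval 0.22 to 0.76), against 0.28 (95% counting interval 0.15 to 0.50) with them.

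Foxn3, a forkhead repressor, had 1252 and 1004 CPM in the HDACi-CFC libraries, against 301 and 189.8 CPM in the Veh-CFC libraries, and 497 CPM in the HDACi-Context library, against 421 CPM in the Veh-Context library, and its CFC log2 fold change was 2.08 (SE 0.68, unadjusted p = 0.0043, adjusted p = 0.4). Ebf1, a gene of the endothelial transcription factor list, had 3934 and 1962 CPM in HDACi-CFC and 1455 and 379.6 CPM in Veh-CFC, at 1.51 (SE 0.65, unadjusted p = 0.027, adjusted p = 0.53). Both lay higher in the 2 HDACi-CFC libraries, but 34.2% of all 187 genes tested had the CFC groups apart in either direction. Neat1, the long noncoding RNA that builds paraspeckles, had 805 and 1004 CPM in the HDACi-CFC libraries, against 251 and 475 CPM in the Veh-CFC libraries, and 596 CPM in the HDACi-Context library, against 120.2 CPM in the Veh-Context library. Its HDACi libraries all lay above the vehicle libraries, again with no share over all genes to set beside it. In all other nuclei the log2 fold change of Neat1 with HDACi by edgeR was 1.51 (adjusted p = 7.8e-07). Vwf, the clotting factor carried mainly by venous and arterial endothelium, gave 5 and 3 UMIs in HDACi-CFC and 13 and 11 in Veh-CFC, but 33 in HDACi-Context and 0 in Veh-Context. A single nucleus, of the HDACi-Context library, held 47.7% of its 65 UMIs.

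RNA of other cells stood beside these values. The astrocyte list gave 983 and 8511 CPM in HDACi-CFC and 1355 and 6074 CPM in Veh-CFC, and the mural list gave 805 and 2282 CPM in HDACi-CFC and 1054 and 3986 CPM in Veh-CFC. In both groups replicate 2 had the higher astrocyte and mural level. Pooled over both libraries of a group, the astrocyte list stood at 6981 CPM in HDACi-CFC and 2987 CPM in Veh-CFC, and without the 11 nuclei led by mural, astrocyte or fibroblast UMIs at 996 CPM in HDACi-CFC and 815 CPM in Veh-CFC. Trpm3 had 504 of its 514 UMIs in HDACi-CFC 2, and 1 nucleus held 88.9% of all. The part of these cells in other single-gene differences was not tested.

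Over both exposures, HDACi against Veh with exposure as a covariate gave the same count. Of 313 genes tested, 0 (0%) were called by edgeR, 3 had an unadjusted p below 0.05 (Sema3c, Hbb-bs and Neat1), and DESeq2 called 0, with 3 below 0.05. Without the HDACi-Context library Trpm3 was called, and without the 11 nuclei led by other cells Hbb-bs, at 2.86, and Strbp, at -3.26, were called. The HDACi-Context nucleus that held 91.5% of all Hbb-bs UMIs was not among those 11 and stayed in that setting. The median log2 fold change over the 313 genes was 0.07. Among barrier genes Slc2a1 stood at 0.50 (-0.56 to 1.56), Cldn5 at 0.60 (-0.52 to 1.72), Tjp1 at 0.49 (-0.61 to 1.58) and Abcb1a at 0.21 (-1.14 to 1.57). The medians were 0.14 over 6 uptake carriers, 0.21 over 3 pumps and 0.12 over 6 junction genes.

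The Context pair has 1 library in each group and no test. The log2 ratios below are of TMM-scaled levels, with factors of 1.06 for HDACi-Context and 0.862 for Veh-Context, and so lie below the ratios of the CPM given above. The log2 ratio of HDACi-Context to Veh-Context was 1.40 for Cldn5 (95% counting interval 0.61 to 2.26) and 1.12 for Slc2a1 (0.39 to 1.90). It was 1.25 for Tjp1 (0.43 to 2.15) and 3.59 for Klf2 (2.17 to 5.50). Klf2 gave 72 UMIs in HDACi-Context and 4 in Veh-Context, and 1 nucleus held 40.8% of all its UMIs. Slco1a4 stood at 0.05 (-0.54 to 0.66). The intervals cover counting error alone, and the nucleus with 54.5% of the HDACi-Context UMIs is part of each of these ratios. The whole identity list stood at 28823 CPM in HDACi-Context and 14727 CPM in Veh-Context. The neuron list stood at 1093 CPM in HDACi-Context and 8355 CPM in Veh-Context, where 1 nucleus held 85 neuron and 0 identity UMIs. The part of this make-up in the ratios was not tested.

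Many endothelial genes, like genes of several other cell types, were higher with HDACi in the sum of nuclei outside the endothelial set. This sum mixes all cell types, so cell shares and levels per nucleus cannot be told apart in it. Mural nuclei, for 1, numbered 29 and 67 of 3743 and 5098 kept in HDACi-CFC. In Veh-CFC they numbered 17 and 30 of 3797 and 4657 kept. In all other kept nuclei, at a far greater depth, 9457 of 20042 genes (47.2%) were called between HDACi-CFC and Veh-CFC, 4337 higher (21.6%) and 5120 lower (25.5%). Of the 29 endothelial identity genes 27 were tested there, 15 were called higher and 0 lower, with a median log2 fold change of 0.58 beside 0.02 over all genes. This was not particular to endothelial genes, since of the neuron list 12 of 12 were called higher (median 0.66), of the astrocyte list 10 of 10 (0.78), of the OPC list 6 of 7 (0.65) and of the mural list 6 of 12 (0.59). Not every list was higher with HDACi. Of 9 efflux pumps 1 was called higher and 3 lower (median -0.04), and of 11 capillary genes 3 and 4 (-0.05). Of 10 microglia genes 2 were called higher and 0 lower (0.05), and of 8 fibroblast genes 1 and 0 (-0.003). Cldn5 had 6.62 and 5.51 CPM in HDACi-CFC and 1.48 and 1.15 CPM in Veh-CFC in the other nuclei, and 4.03 CPM in HDACi-Context against 1.55 CPM in Veh-Context. Its log2 fold change there was 2.43, but the rule counts Cldn5, so this value is not independent of the selection. For Ly6c1 and Ly6a, membrane proteins of brain endothelium, edgeR gave 1.93 (adjusted p = 8.3e-06) and 1.94 (adjusted p = 1e-05). For Slco1a4 it gave 1.43 (95% interval 0.84 to 2.03, adjusted p = 0.0012). In HDACi-CFC 1 the highest single nucleus held 75 of 148 Ly6a UMIs, 73 of 169 for Ly6c1, 44 of 115 for Slco1a4 and 43 of 153 for Cldn5. In HDACi-CFC 2 it held 17 of 236 for Ly6a, 13 of 280 for Ly6c1, 9 of 108 for Slco1a4 and 19 of 204 for Cldn5. Levels in other nuclei stayed at a few CPM, against 1972 CPM of Cldn5 in the endothelial nuclei.

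The other nuclei include those that met the endothelial count and were left out by the limits. Without these, Cldn5 had 2.06 and 3.59 CPM in HDACi-CFC and 0.752 and 0.369 CPM in Veh-CFC, and Ly6c1 2.85 and 6.42 CPM in HDACi-CFC and 1.03 and 0.881 CPM in Veh-CFC. Ly6a had 2.37 and 5.3 CPM in HDACi-CFC and 0.832 and 0.881 CPM in Veh-CFC. The HDACi-CFC libraries stayed above the Veh-CFC libraries for each of these genes. Slco1a4 had 1.41 and 2.13 CPM in HDACi-CFC and 1.07 and 1.19 CPM in Veh-CFC without those nuclei. The groups overlapped for 3 other genes after the same removal. Flt1 had 2.11 and 2.92 CPM in HDACi-CFC and 2.06 and 2.24 CPM in Veh-CFC, Adgrl4 2.2 and 2.02 CPM in HDACi-CFC and 1.62 and 2.19 CPM in Veh-CFC, and Slc2a1 12.2 and 18.1 CPM in HDACi-CFC and 13.7 and 15 CPM in Veh-CFC. In endothelial nuclei Ly6c1 stood at 0.04 (95% interval -1.24 to 1.31) and Ly6a at -0.11 (95% interval -1.45 to 1.24).

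The difference of the HDACi change between endothelial and other nuclei was tested in 1 fit with library as a block. Of 17530 genes 0 (0%) were called by edgeR, 95 had an unadjusted p below 0.05, and DESeq2 called 0, with 107 below 0.05. Only 187 genes had enough UMIs in the endothelial sums, so for most of the 17530 the test could hardly call a difference. Limited to those 187 genes, a setting added after seeing the data, edgeR called 0, with 17 below 0.05 unadjusted. Without HDACi-CFC 1 edgeR called Trpm3. For Ly6c1, which the rule does not count, the change in endothelial nuclei minus that in other nuclei was -1.54 (95% interval -3.65 to 0.58, adjusted p = 1.0), and for Slco1a4 it was -1.10 (-3.26 to 1.07). For Slc2a1 the difference was 0.10 (-2.11 to 2.30). For these 3 genes the change in other nuclei was not shown to differ from that in endothelial nuclei, and the intervals are wide. Cldn5 and the other rule genes are set apart by the selection itself and are not compared this way. A comparison with mural nuclei was not run, because Veh-CFC 1 held 17 of them and 20 in each CFC library had been set as the minimum.

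CFC against Context, with drug as a covariate, was the comparison with calls in endothelial nuclei. Of 313 genes 6 (1.92%) were called by edgeR, all 6 lower in CFC and 0 higher (0%), 19 had an unadjusted p below 0.05, and DESeq2 called 8. Gm42418 is a noncoding locus at chr17:39846958-39848788, known for collecting ribosomal RNA reads, and had 894 and 730.2 CPM in HDACi-CFC and 602 and 1139 CPM in Veh-CFC, against 27679.8 CPM in HDACi-Context and 19957 CPM in Veh-Context. Its log2 fold change was -4.90 (SE 0.48, adjusted p = 0.00039). AY036118 lies within it on the other strand (chr17:39847113-39848035), so reads of the pair cannot be told apart without strand, and it stood at -3.76 (SE 0.53, adjusted p = 0.0028). Cmss1 and Cdk8 are protein-coding, and stood at -4.63 (SE 0.58, adjusted p = 0.0017) and -3.47 (SE 0.57, adjusted p = 0.0067).

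The same 4 loci stood lower in every CFC library than in either Context library in all other nuclei too, where no test between exposures was made. There Gm42418 had 304 and 252 CPM in HDACi-CFC and 302 and 222 CPM in Veh-CFC, against 4508 CPM in HDACi-Context and 4454 CPM in Veh-Context. Cdk8 had 179 and 158 CPM in HDACi-CFC and 182 and 183 CPM in Veh-CFC, against 429 CPM in HDACi-Context and 479.7 CPM in Veh-Context. The 2 Context libraries were processed with Cell Ranger 3.0.2 and the 4 CFC libraries with 3.0.1, per the file headers, and the protocol text speaks of 4 pooled libraries. Exposure and library preparation cannot be told apart here.

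The 2 remaining calls were hemoglobin genes, products of red blood cells. Hbb-bs gave 11 and 12 UMIs in HDACi-CFC and 7 and 3 in Veh-CFC, against 866 in HDACi-Context and 47 in Veh-Context, at -5.09 (SE 0.73, adjusted p = 0.0028). Hba-a2 stood at -5.59 (SE 0.93, adjusted p = 0.0067), with 66.7% of its 51 UMIs in 1 nucleus. Without the HDACi-Context library Hbb-bs, Hba-a2 and Cdk8 were no longer called, and 3 genes were called in all. Their log2 fold changes were then -3.31 for Hbb-bs, -7.15 for Hba-a2 and -3.69 for Cdk8, so of these 3 Hbb-bs alone was smaller in size. Without the Veh-Context library Cdk8, at -3.33, was no longer called. None of the tested barrier genes was called between CFC and Context. Slc2a1 stood at 0.51 (-0.63 to 1.65), Cldn5 at -0.05 (-1.24 to 1.13) and Slco1a4 at -0.21 (-1.29 to 0.87).

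**Figure D5:**
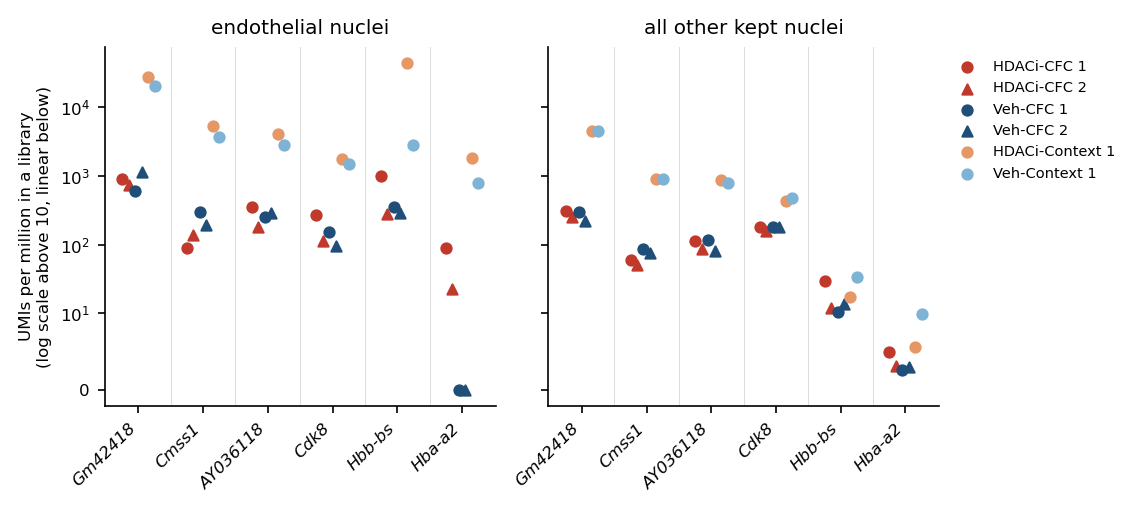
Points are levels of the 6 genes called between CFC and Context, in CPM per library (log scale above 10, linear below), in endothelial nuclei (left) and all other kept nuclei (right). CFC libraries stand left of Context libraries for each gene. The first 4 genes are higher in both Context libraries in both panels, while the hemoglobin gene Hbb-bs reaches 43035 CPM in the HDACi-Context endothelial nuclei.

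The targets of the drug were barely covered. Hdac1, Hdac2, Hdac3 and Hdac8, the class I deacetylases, gave 5, 3, 6 and 32 UMIs over all endothelial nuclei, and none was tested. Hdac8 had 21 of its UMIs in HDACi-CFC 2. A library's floor, the level that 3 UMIs would give, ran from 68.5 CPM in HDACi-CFC 2 to 284.7 CPM in Veh-CFC 2, and the 4 genes together stood at 376 CPM in endothelial nuclei, against 293 CPM in all other nuclei. Differences in these genes were not detectable at this depth.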

How the data were processed

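Single-nucleus RNA was measured in 6 libraries of 5 pooled mice each (10x Genomics 3′ chemistry v3). The deposited matrices hold UMI counts per gene and barcode, not normalized, made by the authors with Cell Ranger 3.0.1 (CFC) and 3.0.2 (Context), per the file headers. The mm10 build and Seurat 4.0.3 are named in the submitters' processing notes, and whether intronic reads were counted is not given in the sources used here. Of 30323 barcodes, 27766 had 500 or more detected genes with no more than 5% of UMIs from mitochondrial genes, and these were kept, and libraries held 24508202 to 45570814 UMIs over all barcodes. Scrublet (in scanpy 1.11.5, expected doublet rate 0.06) marked doublets, which stayed in.

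Members and gene lists were chosen with earlier results of these data known. UMIs of the endothelial nuclei were summed per library (10537 to 43825) and fitted with edgeR 4.0.16 (R 4.3.3; TMM scaling, filterByExpr with a minimum count of 10, quasi-likelihood F test, Benjamini-Hochberg adjustment over all genes tested, threshold 0.05). The library was the replicate. Whether the libraries came from separate days is not stated, so p-values measure the spread between these libraries. DESeq2 1.42.0 was an alternative. The CFC fits used the 4 CFC libraries, and the fits over both exposures used all 6 with drug and exposure as terms. Intervals on log2 fold changes use the t distribution of the fit, and pooled ratios have exact binomial counting intervals. Named genes were the rule genes, a set of barrier genes, called genes, and the most abundant members of each list, and genes outside this were chosen after their values were seen. Coordinates are those of GENCODE M21, which matched 30934 of 31053 gene IDs. The CFC fit was tested on counts simulated from the means and library sizes of the endothelial sums. It called 15.2% of tested genes with a true log2 change of 1 in size and 48.1% of those with 2. Of unchanged genes it called 0%. Some genes are not reported here.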

Additional observations from a re-analysis of the deposited data

Results flagged for a closer look

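Among 72 named genes tested over all 6 libraries, 13 had TMM-scaled levels that did not overlap between HDACi-CFC and Veh-CFC and a Context pair that pointed the other way, and over all 313 genes tested 74 did (23.6%). The share among the named genes was thus below that over all genes tested. Foxn3, Macf1, Maml2 and Fau were named for an unadjusted p below 0.05 in the CFC fit, so their CFC difference was part of the choice. For each of the 13, the difference between CFC and Context was not tested, and each Context value rests on 1 library a group. The values below are log2 ratios of HDACi-Context over Veh-Context, on TMM-scaled levels.

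In 6 genes the level was higher with HDACi in both CFC libraries and lower in the Context pair. The angiopoietin receptor gene Tek stood at -0.87, the insulin receptor gene Insr at -0.027, and the forkhead repressor gene Foxn3 at -0.065. The cytoskeletal linker gene Macf1 stood at -0.65 and Maml2, a Notch coactivator, at -2.16. The noncoding RNA Snhg11, a gene of the neuron list, stood at -4.16, from 1 UMI in HDACi-Context against 12 UMIs in Veh-Context. For Insr and Foxn3 the Context direction turned with the scaling, since in unscaled CPM Insr had 1093 CPM in HDACi-Context against 902 CPM in Veh-Context and Foxn3 497 against 421 CPM. For Snhg11, as for H2-D1 below, the unscaled CPM of the CFC groups overlapped.

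In the other 7 the level was lower with HDACi in CFC and higher in the Context pair. The clotting factor gene Vwf, with 33 UMIs in HDACi-Context against 0 UMIs in Veh-Context, stood at least 2.88 higher on the log2 scale, computed against a floor of 3 counts in that library. Most of these 33 UMIs came from a single nucleus. The BMP target Id3 stood at 1.81 and the ribosomal fusion gene Fau at 1.10. Ly6e stood at 0.34, the class I histocompatibility genes H2-K1 and H2-D1 at 0.42 each, and Cmss1 at 0.23.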

How the results depend on the processing

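For HDACi-CFC against Veh-CFC, the count of 0 genes became 1 (Trpm3) with no filter on low counts and ranged from 0 to 14 when each library was left out. With the replicate number as a block it was 10. The labels do not pair the libraries, the deviations of same-numbered libraries had r = 0.388 over 187 genes in 2 pairs, and the numbers were taken as numbers only. Over both exposures the count of 0 became 2 without the nuclei led by mural, astrocyte or fibroblast UMIs, a setting added after seeing the data, and ranged from 0 to 1 with a library left out. CFC against Context ranged from 3 to 7 with a library left out, and the test of the difference from all other nuclei from 0 to 1. The mean share in HDACi-CFC was 0.129% instead of 0.293% without nuclei holding over 1 mural or astrocyte UMI, that in Veh-CFC was 0.140% instead of 0.257%, so the order of the means turned, and that in HDACi-Context was 0.0731% instead of 0.128%. No call reversed, and the causes of these changes were not tested. All 6 genes called between CFC and Context kept their sign in 94 gene and setting pairs, with 4 calls lost. Uncalled barrier and rule genes changed sign in 40 of 172 such pairs in CFC and in 24 of 200 over both exposures. Scaling per nucleus moved the median log2 fold change by 0.38 in CFC, by 0.65 over both exposures and by -0.25 between exposures. At 7 to 19 endothelial nuclei a library, 187 of 31053 genes had enough UMIs to be tested in CFC (0.602%).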

Other observations

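The list of leukocyte adhesion and inflammation genes had 23 members, of which 19 were detected and 3 tested between HDACi-CFC and Veh-CFC. None was called by edgeR, and their median log2 fold change was -1.10, beside 0.07 over all 187 genes tested. Over both exposures 6 of them were tested, 0 called, with a median of -0.18, and there Il1r1 stood at 0.64 and the NF-kappaB inhibitor gene Nfkbia at 0.74. H2-K1, a class I histocompatibility gene, stood at -1.27, Ly6e at -1.10 and the interleukin-1 receptor gene Il1r1 at -0.36 in CFC. The adhesion genes Sele and Selp, the chemokine gene Ccl2 and the venular receptor gene Ackr1, which mark activated or venular endothelium, were at 0 in all 67 nuclei. Vcam1, an adhesion gene of the same list, gave 30 UMIs. The immediate early genes Fosb, Nr4a1 and Myc were also at 0. Of the 14 listed immediate early genes 11 were detected, with 235 UMIs in 58 nuclei, 152 of these UMIs from Klf2.

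The nuclei did not divide cleanly by vessel type. Of the 67, 38 had at least 2 UMIs of the arterial list, 45 had at least 2 of the venous list and 27 had both. The arterial list is not particular to vessels, since 57.8% of all other nuclei had at least 2 of its UMIs. Mgp, an arterial matrix gene, and Vwf each had UMIs in 15 nuclei.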
